A study of Mus musculus with 30 samples.

Results

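Hematopoietic stem cells (HSC) were compared with multipotent progenitors labelled MPP4, a name used for lymphoid-biased cells, in mouse bone marrow that kept Mettl3. The comparison set 3 WT HSC libraries against 3 WT MPP4 libraries, out of 24 bulk RNA-seq libraries and 30 samples in all. The 6 libraries were chosen by their column labels alone, and no measured value entered the choice. Every mouse carried the floxed alleles Mettl3 fl/fl, and cells were taken 3 weeks after pIpC, a double-stranded RNA that triggers an interferon response. WT here means Mettl3 fl/fl without Mx1-Cre. WT mice were treated with pIpC like the Mettl3KO mice, which carry Mx1-Cre. Mettl3 is the catalytic subunit of the complex that writes the m6A mark on messenger RNA, and Mx1-Cre is switched on by interferon in blood-forming cells and in other interferon-responsive cells. Both populations were sorted as lineage-negative, Sca1+ and c-Kit+ cells: HSC were CD150+ and CD48-, and MPP4 were CD150- and CD48+. Flt3, often used to define MPP4, was not in the gate, so CD150- and CD48+ cells without Flt3 were not excluded. The WT populations MPP1 (CD150-, CD48-) and MPP2 (CD150+, CD48+) and the Mettl3KO HSC and MPP4 libraries, 3 of each, were used only to place this difference. Each group held 3 mice, and the labels do not say whether HSC and MPP4 libraries of the same number came from the same mouse. RNA of small cell numbers was amplified by the SMARTer method, so the libraries give relative levels, and fewer expressing cells and less RNA per cell cannot be told apart.

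As background, HSC sit at the top of the blood hierarchy, divide rarely in the adult, and are held in that state by niche signals, transcription factors such as Prdm16 and Mecom, and inhibitors of cyclin-dependent kinases such as p57. Surface SLAM receptors separate them from progenitors, and a share of HSC carries transcripts of the megakaryocyte and platelet lineage. MPP4 are fast-cycling progenitors that lean towards lymphocytes and also give myeloid cells; a textbook sign of the lean is RNA of lymphoid genes before the cells commit.

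Library totals were 31543765 to 47839062 counts in the 6 libraries, and 15545 genes passed the filter on low counts in the fit of all 24 libraries. Levels are CPM, counts scaled to a common library total with TMM factors, always given for replicates 1, 2 and 3 in that order. Fold changes are log2 values of HSC over MPP4 with their standard error. A gene is called higher or lower in HSC when the Benjamini-Hochberg adjusted p of edgeR's quasi-likelihood test is under 0.05. Taken as unpaired, 3 libraries against 3 cannot give an exact two-sided permutation p below 0.1. HSC library 2 lay apart from the other HSC libraries (first principal component -56.04, against -30.9 and -36.27), and MPP4 library 1 from the other MPP4 libraries (50.63, against 32.9 and 38.09). Leaving out either one had the strongest effect on the number of calls, which was 680 without HSC 2 and 725 without MPP4 1, against 1873 with all libraries. The same numbers were 1351, 1318, 1131 and 958 without HSC 1, HSC 3, MPP4 2 and MPP4 3. RNA of immediate early genes, which answer stress and cell handling, summed over 26 genes to 4117, 8928 and 19025 CPM in HSC and 3108, 6682 and 16629 CPM in MPP4. The sum was lowest in library 1 and highest in library 3 of both populations; 1 of the 26 genes was called, Zfp36l1, and a replicate block within genotype gave 5 higher and 3 lower.

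The gates were visible in the RNA. Slamf1, which encodes CD150 (GRCm38 chromosome 1, 171767127 to 171801184, plus strand, 7 exons), had 18.9, 15.6 and 38.3 CPM in HSC, against 0.56, 0.764 and 1.62 CPM in MPP4 (log2 fold change 4.63 ± 0.59, adjusted p = 5.3e-05). Cd48, its neighbour in the SLAM gene cluster (chromosome 1, 171682009 to 171705258, plus strand, 4 exons), had 10.4, 5.58 and 6.43 CPM in HSC, against 225, 167 and 163 CPM in MPP4 (log2 fold change -4.63 ± 0.38, adjusted p = 1.7e-07). Neither pair of groups overlapped, as the sort fixed. Most SLAM receptors outside the gate were lower in HSC too. Slamf7, a receptor of activated lymphocytes and plasma cells, had 2 counts in the 3 HSC libraries together and 44.9, 66.2 and 72.6 CPM in MPP4. The ratio was 4325, with a 95% Poisson interval of 1197 to 35710 that covers counting error only. Slamf6 had 0.0388, 0.359 and 0 CPM in HSC and 29.3, 13.3 and 8.85 CPM in MPP4 (log2 fold change -6.97 ± 1.27, adjusted p = 0.0015). The NK receptor gene Cd244 had 5.14, 5.6 and 0.331 CPM in HSC and 26.2, 24.6 and 20.5 CPM in MPP4 (log2 fold change -2.68 ± 0.59, adjusted p = 0.0063). In all, 6 of 9 SLAM genes were lower in HSC, when 6.65% of all genes tested were, and 1 was higher. These counts include the gate genes Cd48 (lower) and Slamf1 (higher), whose direction the sort fixed. Lower SLAM genes numbered 4 without WT HSC 2 and 5 without any other 1 library. Cd84 did not pass, with 91.5, 116 and 92.4 CPM in HSC and 75.3, 62.6 and 74.4 CPM in MPP4 (adjusted p = 0.18).

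Kit, the receptor behind the shared c-Kit gate, was higher in HSC, at 699, 1137 and 604 CPM, against 221, 356 and 262 CPM in MPP4 (log2 fold change 1.54 ± 0.47, adjusted p = 0.041). The call was lost without HSC 1 (0.059), HSC 2 (0.2), MPP4 1 (0.15), MPP4 2 (0.061) and MPP4 3 (0.11); the numbers in parentheses are adjusted p values. Ly6a, which encodes Sca1, did not pass (1046, 851 and 966 CPM in HSC, 1065, 1811 and 1589 CPM in MPP4, adjusted p = 0.085). Kit, Ly6a and Prdm16 are among 166 genes with only even counts in all libraries, and halving those counts changed no call of a gene named here. Flt3, the cytokine receptor that marks MPP4, was lower in HSC, with 168, 228 and 54.4 CPM against 398, 413 and 413 CPM in MPP4 (log2 fold change -1.44 ± 0.41, adjusted p = 0.03). HSC 3 was far below the other HSC libraries for Flt3 while the MPP4 levels were nearly equal, and the call was lost in the fit of these 6 libraries alone (0.055) and without HSC 1 (0.055), HSC 3 (0.083), MPP4 1 (0.075), MPP4 2 (0.062) and MPP4 3 (0.068). Cd34, low on long-term HSC, was 861, 802 and 477 CPM in HSC and 1291, 1407 and 1265 CPM in MPP4 (log2 fold change -0.89 ± 0.27, adjusted p = 0.036). The call was lost without HSC 2 (0.083), HSC 3 (0.13), MPP4 1 (0.09), MPP4 2 (0.088) and MPP4 3 (0.072). Mettl3 itself had 36.5, 31.5 and 42.5 CPM in HSC and 32.6, 34.3 and 31.5 CPM in MPP4, with no call (adjusted p = 0.57).

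**Figure D1:**
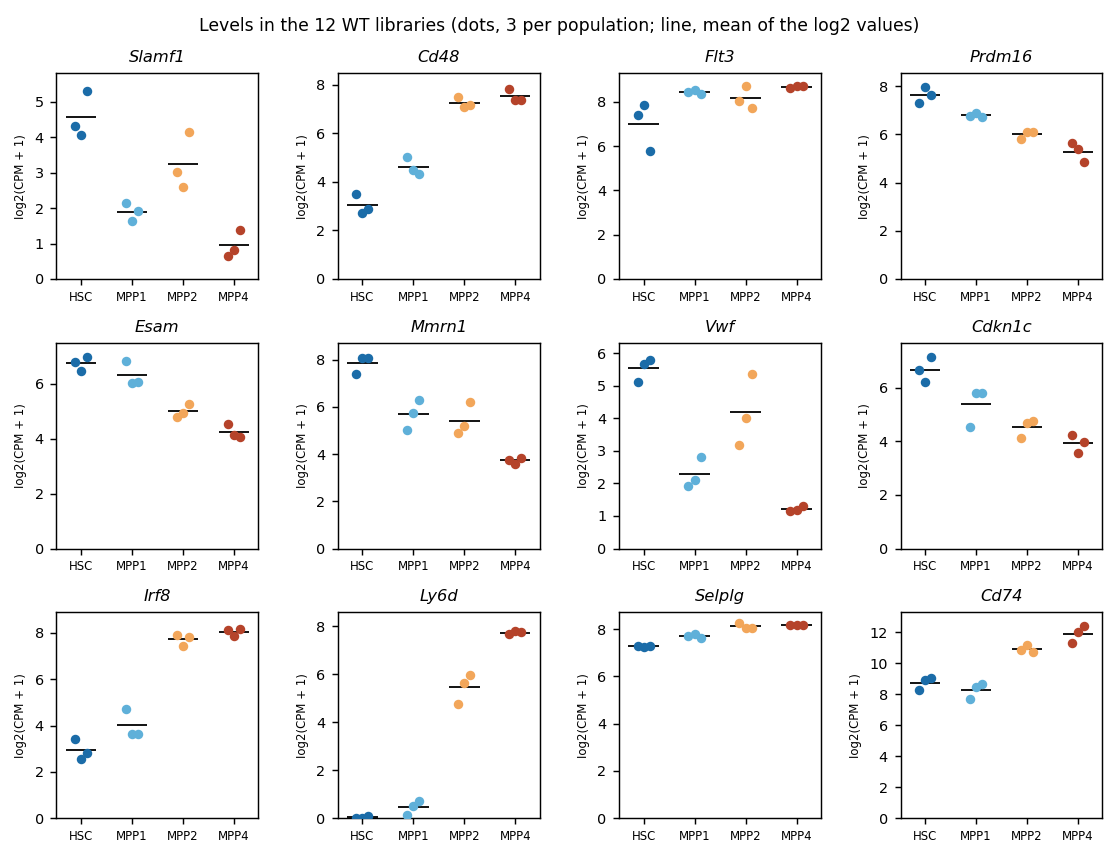
Levels of 12 genes in the 12 WT libraries as log2(CPM + 1), with HSC, MPP1, MPP2 and MPP4 on the x axis; dots are libraries and lines the mean of the log2 values. Cd48, Irf8 and Ly6d are low in HSC and MPP1 and high in MPP2 and MPP4, while Slamf1 and Vwf are higher in HSC and MPP2 than in MPP1 and MPP4.

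Over all genes, 840 were higher in HSC (5.4% of those tested) and 1033 were lower (6.65%), 12% together. Of these, 588 were at least 2-fold higher and 613 at least 2-fold lower. The median log2 fold change of all genes was 0.04, and the libraries of the 2 groups did not overlap for 42% of genes, called or not. Called genes that the naming rule took from the lists had to have non-overlapping groups. Statements below that such groups were apart therefore describe the choice and add no evidence. More of the genes with no count in 1 population were on the MPP4 side: 114 of the lower genes had no count at all in the 3 HSC libraries, while 18 of the higher genes had none in the 3 MPP4 libraries. A fold against a group with no count is a lower bound here, computed against 3 counts over the group.

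**Figure D2:**
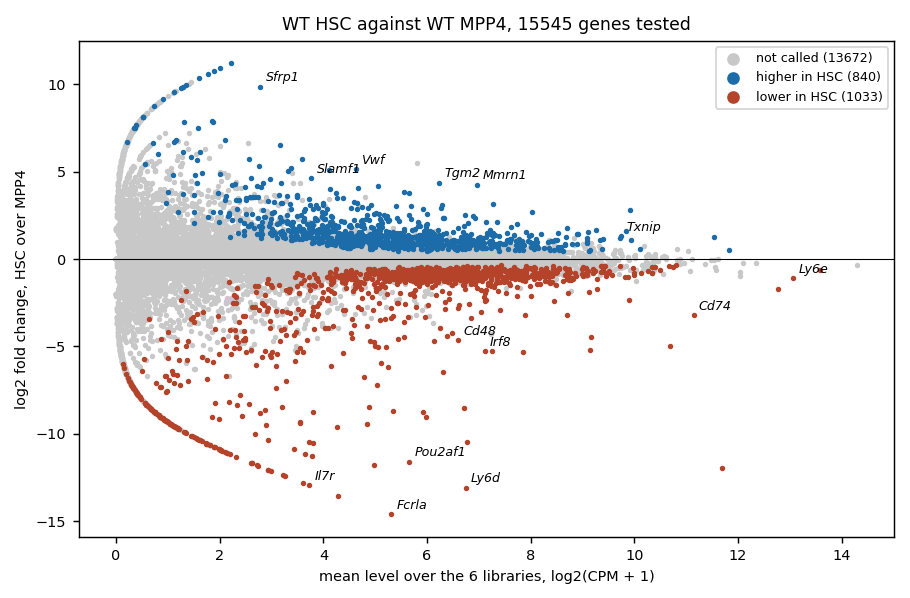
Log2 fold change of HSC over MPP4 (y) against the mean level over the 6 libraries as log2(CPM + 1) (x), 1 dot per gene tested; blue genes were higher in HSC (840), red genes lower (1033). The curved edges are genes with no count in 1 group, whose fitted fold change depends on the prior count.

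Most transcription factors of stem cells were higher in HSC. Of 36 such genes 22 were called higher, against 5.4% of all genes, none lower, and 34 had a log2 fold change above 0, with a median of 1.24. Prdm16, needed to maintain HSC (chromosome 4, 154316125 to 154636873, minus strand, 17 exons), had 157, 250.3 and 196 CPM in HSC, against 48.5, 41 and 27.6 CPM in MPP4 (log2 fold change 2.36 ± 0.26, adjusted p = 7.2e-06). Tcf15, a bHLH factor tied to quiescent HSC, had 26.8, 20.1 and 46.7 CPM in HSC and 0.64, 3.19 and 1.92 CPM in MPP4 (log2 fold change 4.02 ± 0.52, adjusted p = 7.1e-05). Klf9 showed a smaller step, 39.9, 66.1 and 55.4 CPM in HSC against 19.1, 18.4 and 20.1 CPM in MPP4 (log2 fold change 1.49 ± 0.20, adjusted p = 7.1e-05). The groups did not overlap for any of these 3 genes, a condition of naming them, and none of the alternatives ended their calls. Runx1, needed across the whole stem and progenitor pool, did not pass (395, 455 and 405 CPM in HSC, 321, 351 and 404 CPM in MPP4, adjusted p = 0.31). Egr1, both a quiescence factor and an immediate early gene, had overlapping groups, with 192, 457 and 1269 CPM in HSC and 32.3, 119 and 671 CPM in MPP4 (adjusted p = 0.44).

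Among Hox genes, 5 of 22 were higher in HSC (22.7%, against 5.4% of all genes) and none lower (median 1.29). Hoxb5, a marker of long-term HSC in mice (chromosome 11, 96303336 to 96306121, plus strand, 2 exons), had 10.9, 11.4 and 23.8 CPM in HSC and 0, 1.45 and 0.829 CPM in MPP4 (log2 fold change 4.34 ± 0.89, adjusted p = 0.0039). Hoxa10 had 97.6, 89.4 and 111 CPM in HSC, against 33.8, 34.9 and 44.1 CPM in MPP4 (log2 fold change 1.40 ± 0.20, adjusted p = 1.5e-04). Both were called in every alternative, whereas Hoxb2 (log2 fold change 2.09 ± 0.48, adjusted p = 0.0082) lost its call without MPP4 1 (0.057). Hoxa9, the leukemia-associated Hox gene of progenitors, had 206, 195 and 173 CPM in HSC and 141, 141 and 207 CPM in MPP4, overlapping groups with no call (adjusted p = 0.46). The count of Hox genes higher in HSC was 3, 3, 2 and 3 without WT HSC 2, HSC 3, MPP4 1 and MPP4 2.

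On the cell surface, 22 of 39 stem cell genes were higher in HSC (56.4%, against 5.4% of all genes), with a median of 1.66. In the same list 2 were lower (5.1%, against 6.65%), and 1 when any library other than HSC 1 was left out. Procr, the protein C receptor EPCR used to sort HSC, had 86.6, 72.5 and 92.8 CPM in HSC, against 12.3, 18.3 and 20.9 CPM in MPP4 (log2 fold change 2.29 ± 0.29, adjusted p = 6.3e-05). Tie1, an angiopoietin co-receptor, had 125, 141 and 125 CPM in HSC and 18.9, 27.7 and 31.3 CPM in MPP4 (log2 fold change 2.33 ± 0.30, adjusted p = 7.1e-05). Its partner Tek, the receptor of angiopoietin 1, had 59.1, 115 and 85.8 CPM in HSC and 2.32, 12.6 and 2.98 CPM in MPP4 (log2 fold change 3.85 ± 0.71, adjusted p = 0.0017). The junction molecule Jam3 had 19.5, 14.5 and 22.6 CPM in HSC and 1.63, 2.18 and 0.928 CPM in MPP4 (log2 fold change 3.57 ± 0.47, adjusted p = 7.1e-05). The groups were apart for all 4. Several of these genes are also expressed by endothelium, so its markers were counted. Of 14 endothelial and stromal markers 10 had a log2 fold change above 0 (median 1.44), and none was called higher in HSC, although 1 was in the fit of the 6 libraries alone, 2 with DESeq2 and 3 with quality weights. The collagen gene Col3a1 had 5.27, 5.07 and 0.0236 CPM in HSC and 0 in each MPP4 library, and the VEGF receptor gene Kdr had 3.78, 3.3 and 4.68 CPM in HSC, against 0, 0.245 and 0.63 CPM in MPP4 (adjusted p = 0.077 for both). The 1 call was Vim, which was lower in HSC and lost in each of the 6 fits without 1 library; the part of these markers in the surface gene difference was not tested. The marker sums were 354, 334 and 282 CPM in HSC and 398, 408 and 439.9 CPM in MPP4. Abundant members weigh most in these sums, which were lower in HSC although 10 of the 14 markers were above 0. The endothelial cadherin Cdh5 was at 0 to 0.581 CPM in HSC and 0.133 to 0.298 CPM in MPP4. Bst1, an ectoenzyme of stromal and B-lineage cells that overlaps Fbxl5 in the annotation, went the other way, with 2 counts in all of HSC and 4.27, 1.53 and 2.22 CPM in MPP4, a ratio of 188.6 (95% Poisson interval 52.21 to 1557).

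Genes of megakaryocytes and platelets were higher in HSC in 19 of 30 cases, against 5.4% of all genes, and lower in none; the median was 2.56. Mmrn1, the platelet protein multimerin 1, had 167, 269 and 268 CPM in HSC and 12.6, 11.1 and 13.5 CPM in MPP4 (log2 fold change 4.24 ± 0.61, adjusted p = 1.8e-04); it is another of the genes with only even counts. The calcium channel gene Trpc6 had 141, 152 and 123 CPM in HSC and 12.6, 17.8 and 18 CPM in MPP4 (log2 fold change 3.10 ± 0.48, adjusted p = 3.5e-04). No HSC library came near any MPP4 library for either gene. Plek, a platelet protein kinase C substrate also found in leukocytes, did not follow, with 30.5, 56.6 and 42.4 CPM in HSC and 39.6, 56.7 and 57.4 CPM in MPP4 (adjusted p = 0.71), nor did the tetraspanin Cd9 (adjusted p = 0.16). The count fell to 12 without WT MPP4 1. The 22 erythroid genes summed to 1576, 1203 and 1619 CPM in HSC and 820, 811 and 779 CPM in MPP4, most of it Car2. Of these genes 2 were higher (9.1%, against 5.4% of all genes) and 1 lower (4.5%, against 6.65%), with a median of 0.40. The lower one was the transferrin receptor Tfrc, lost without HSC 2 (0.12), HSC 3 (0.088), MPP4 1 (0.1) and MPP4 2 (0.064). The 2 higher ones were Car2, carbonic anhydrase 2 (1239, 958 and 1333 CPM in HSC, 472, 543 and 526 CPM in MPP4), and Tal1, which also stands among the stem cell factors.

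Cytokine receptors were called in both directions (median -0.37). Of 46, 7 were higher in HSC (15.2%, against 5.4% of all genes) and 13 lower (28.3%, against 6.65%). Besides Tek and Kit, the higher ones included Il27ra, the interleukin 27 receptor, with 74.7, 40.8 and 62.9 CPM in HSC and 20.1, 30.5 and 30.5 CPM in MPP4 (log2 fold change 1.14 ± 0.24, adjusted p = 0.0054; it overlaps Palm3 in the annotation). Il7r, through which early lymphocytes take up interleukin 7 signals, was without a count in HSC and had 29.9, 28.9 and 14.8 CPM in MPP4. Prlr, the prolactin receptor, had none in HSC and 6, 15.3 and 12.9 CPM in MPP4 (at least 536-fold lower in HSC). Il5ra, the interleukin 5 receptor of eosinophils and B1 cells, had none in HSC and 4.64, 4.06 and 6.5 CPM in MPP4 (at least 238-fold lower in HSC). All 3 receptors had counts in each MPP4 library. Il2rb, shared by the interleukin 2 and 15 receptors, had 2 counts in HSC and 13, 37.5 and 22.6 CPM in MPP4, a ratio of 1722 (95% Poisson interval 476.8 to 14220). The G-CSF receptor Csf3r had 191, 306 and 166 CPM in HSC and 244, 354 and 251 CPM in MPP4, and the TSLP receptor gene Crlf2 had 209.96, 198 and 228 CPM in HSC and 199, 225 and 241 CPM in MPP4; neither passed (adjusted p = 0.36 and 0.82). Lower calls numbered 7, 6, 5 and 8 without WT HSC 1, HSC 3, MPP4 1 and MPP4 2, and higher calls 4 without WT MPP4 1.

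Lymphoid genes were lower in HSC in 25 of 44 cases (56.8%, against 6.65% of all genes) and higher in 1 (2.3%, against 5.4%). The median was -1.49. Irf8, a transcription factor of lymphoid and monocytic cells (chromosome 8, 120736358 to 120756694, plus strand, 9 exons), had 9.71, 4.9 and 5.93 CPM in HSC, against 280.3, 231 and 291 CPM in MPP4 (log2 fold change -5.28 ± 0.42, adjusted p = 1.7e-07). Blnk, the adaptor of the pre-B-cell receptor, had 2.89, 1.99 and 1.54 CPM in HSC and 100.4, 59 and 49.4 CPM in MPP4 (log2 fold change -5.02 ± 0.41, adjusted p = 1.7e-07). Ly6d, the surface marker of B-cell-biased lymphoid progenitors (chromosome 15, 74762056 to 74763620, minus strand, 3 exons), had 3 counts in all of HSC and 202, 220.1 and 215 CPM in MPP4, a ratio of 9996 (95% Poisson interval 3421 to 48470). Each of these genes had non-overlapping groups. Factors used broadly in the pool did not pass: Tcf3, which encodes E2A, had 1199, 1474 and 1164 CPM in HSC and 1564, 1384 and 1223 CPM in MPP4 (adjusted p = 0.79). The leukocyte protein gene Lsp1 had 1172, 877 and 951 CPM in HSC and 1256, 1371 and 1705 CPM in MPP4 (adjusted p = 0.097). Bcl11a was the 1 higher gene (log2 fold change 0.63 ± 0.20, adjusted p = 0.045), a call lost with no count filter (0.059), after removal of length and GC trends (0.17) and without HSC 1 (0.08), HSC 2 (0.22), MPP4 1 (0.079), MPP4 2 (0.1) and MPP4 3 (0.15).

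Markers of other cell types that a sort could hold were measured beside these genes, and their part in the lymphoid difference was not tested. The B and plasma cell list is not limited to mature cells. It also holds the pre-B receptor genes Vpreb1 and Igll1, and Ebf1 and Pax5, which the lymphoid list holds too. All 15 B and plasma cell markers were lower in HSC, when 6.65% of all genes were. Their sum was 77.9, 70.2 and 51 CPM in HSC, against 5512, 8709 and 8714 CPM in MPP4. Igj, the immunoglobulin J chain, made up 75.7%, 88.2% and 90.2% of the sum in the MPP4 libraries. Without it the sums were 76.7, 68.4 and 49.0 CPM in HSC and 1340.0, 1027 and 856 CPM in MPP4. Ms4a1, which encodes CD20 of mature B cells, was at 0 in HSC and 18.6, 22.1 and 10.7 CPM in MPP4. The B-lineage commitment factor Pax5 was at 0 in HSC and 1.17, 0.791 and 0.862 CPM in MPP4, a call lost without HSC 2 (0.054). Of 15 T and NK cell markers 7 were lower in HSC (4 without HSC 1 or HSC 2), with sums of 110.4, 86.1 and 102 CPM in HSC and 443, 389 and 415 CPM in MPP4. The defining T cell gene Cd3e was at 0 in HSC and 2.77, 0.736 and 0.564 CPM in MPP4, called in 2 of the 6 fits without 1 library (up to 0.096, without HSC 2). Of 11 dendritic cell markers 7 were lower, with sums of 241, 272 and 137 CPM in HSC and 776, 821 and 861 CPM in MPP4, most of it Flt3 and Ly6d, which other lists hold too. Outside the lists, 3 B-lineage genes had some of the largest steps: Fcrla, a B-cell Fc receptor-like gene, had no count in HSC or in MPP1 and 57.7, 88.8 and 84.5 CPM in MPP4 (at least 3624-fold lower in HSC). Cd40 had none in HSC and 23.7, 27.5 and 60.2 CPM in MPP4 (at least 1748-fold lower). Pou2af1, the B-cell coactivator OBF1, had 0.0194, 0 and 0.0709 CPM in HSC and 74.7, 127 and 94.3 CPM in MPP4. The chemokine receptor Ccr6 (at least 628-fold lower) and the calcium channel gene Cacna1s (at least 1046-fold lower) had no HSC count either. The B-lineage genes are a selection, since other genes outside the lists had larger fitted steps than Pou2af1 (log2 fold change -11.61). These included Cacna1h (-12.38, overlapping Tpsg1), Klrc1 (-12.11), Txk (-11.8), Ifi205 (-11.7) and Hepacam2 (-11.66). The Klrc1 and Txk calls were lost without HSC 1, HSC 2 or HSC 3 (up to 0.095 and 0.099, both without HSC 2).

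Granulocyte and monocyte genes were lower in HSC in 19 of 36 cases (52.8%, against 6.65% of all genes) with a median of -2.70. The 1 higher gene (2.8%, against 5.4%), Csf2rb2, was lost without HSC 2 (0.079) and MPP4 3 (0.058). Ccr2, the chemokine receptor of monocytes, had 1.16, 0.444 and 0 CPM in HSC and 19, 18.7 and 27.6 CPM in MPP4 (log2 fold change -5.32 ± 1.00, adjusted p = 0.002). The signalling adaptor Tyrobp had 10.7, 3.13 and 7 CPM in HSC, against 104, 58.3 and 92 CPM in MPP4 (log2 fold change -3.61 ± 0.70, adjusted p = 0.0024). Ly86, the MD-1 partner of a Toll-like receptor homologue, had 1.09, 0.275 and 0.0236 CPM in HSC and 41, 25.5 and 31.8 CPM in MPP4 (log2 fold change -6.11 ± 1.34, adjusted p = 0.0062). The granule protease Prtn3 did not pass, although its groups were apart (196, 158 and 219 CPM in HSC, 703, 497 and 853 CPM in MPP4, adjusted p = 0.069). Lysozyme, Lyz2, overlapped (289, 152 and 394 CPM in HSC and 361, 224 and 345 CPM in MPP4, adjusted p = 0.93). The count of lower genes was 11, 7, 11, 8 and 8 without WT HSC 1, HSC 2, HSC 3, MPP4 1 and MPP4 3. None of 14 macrophage markers was called by edgeR at the adjusted threshold (4 at an unadjusted p under 0.05, 1 with DESeq2, 0 with quality weights, 2 with a replicate block, 8 with a block within genotype and 2 without HSC 1). Their sum was 321, 93.1 and 61.8 CPM in HSC and 2109, 309 and 208 CPM in MPP4, highest in library 1 of both. Of 11 mast cell and basophil markers 7 were lower in HSC, with sums of 9.61, 5.6 and 20.4 CPM in HSC and 120.4, 60.6 and 233 CPM in MPP4. None of 11 neutrophil markers was called (0 at an unadjusted p under 0.05, 0 with DESeq2 and 0 with quality weights); their sums were 255, 119 and 1577 CPM in HSC and 65.9, 53 and 1514 CPM in MPP4. The neutrophil sum was highest in library 3 of both. The part of these other cells in the myeloid difference was not tested.

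Antigen presentation genes formed another group on the MPP4 side. Of 13 MHC class II genes 10 were lower in HSC (76.9%, against 6.65% of all genes) and none higher. All 13 had a log2 fold change below 0 (median -2.36). Cd74, the invariant chain (chromosome 18, 60803848 to 60812652, plus strand, 10 exons), had 309, 486 and 529 CPM in HSC, against 2573, 4114 and 5528 CPM in MPP4 (log2 fold change -3.21 ± 0.39, adjusted p = 3.2e-05). H2-Ab1, a class II beta chain, had 80.7, 101 and 144 CPM in HSC and 357, 493 and 910.5 CPM in MPP4 (log2 fold change -2.43 ± 0.40, adjusted p = 6.2e-04). The peptide-loading gene H2-DMb2 had 2.29, 1.75 and 1.42 CPM in HSC and 12.1, 16.2 and 15.4 CPM in MPP4 (adjusted p = 5.0e-04). All 3 genes were detected in every HSC library. Ciita, the coactivator of these genes, had 13.7, 18 and 16.1 CPM in HSC and 18.6, 44.2 and 51.8 CPM in MPP4, and did not pass (adjusted p = 0.072). At least 8 of the 13 were called without any 1 library.

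**Figure D3:**
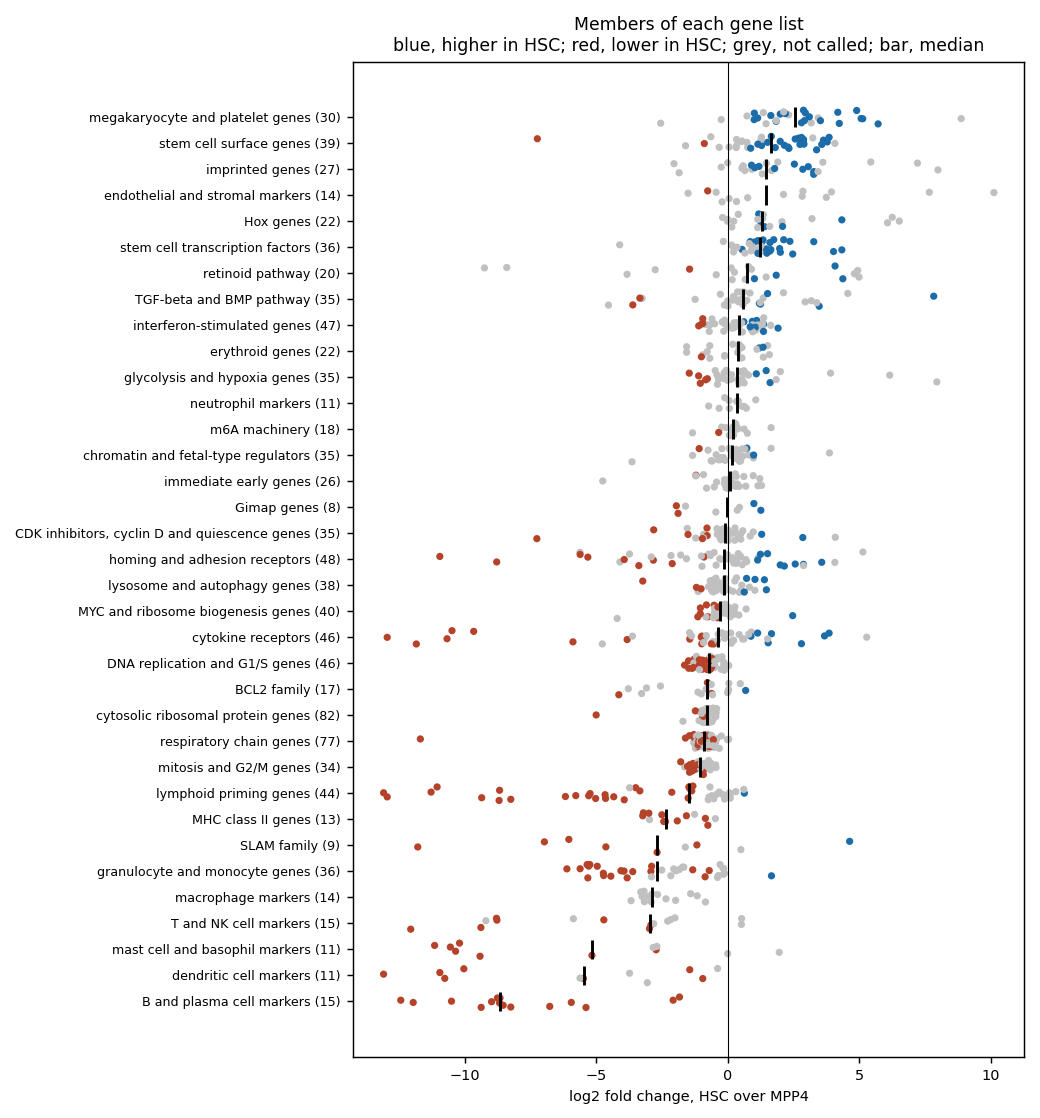
Log2 fold change of HSC over MPP4 for the tested members of 35 gene lists, ordered by median, with the number tested in parentheses. Blue members were called higher in HSC, red lower and grey neither; black bars are medians, from 2.56 for megakaryocyte genes to -8.66 for B and plasma cell markers.

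Many cell cycle genes were lower in HSC. Of 46 DNA replication and G1/S genes 26 were lower in HSC (56.5%, against 6.65% of all genes) and none higher. A log2 fold change below 0 was seen for 45 (median -0.72). Fen1, the flap endonuclease of lagging-strand synthesis, had 244, 273 and 273 CPM in HSC, against 449, 453 and 417 CPM in MPP4 (log2 fold change -0.74 ± 0.13, adjusted p = 0.0013; it overlaps Tmem258 on the other strand). Gins1, a subunit of the replicative helicase, had 21.4, 12.6 and 19.1 CPM in HSC and 56.7, 44 and 48.3 CPM in MPP4 (log2 fold change -1.49 ± 0.28, adjusted p = 0.0019). Mcm5, another helicase subunit, had 141, 132 and 146 CPM in HSC and 236, 233 and 219.8 CPM in MPP4 (log2 fold change -0.72 ± 0.15, adjusted p = 0.005). The groups did not overlap for these 3 genes. Mcm6 (283, 320.1 and 294 CPM in HSC, 345, 388 and 309 CPM in MPP4, adjusted p = 0.56) and Mcm3 (adjusted p = 0.22) did not pass. The count was 13, 7, 9, 15 and 11 without WT HSC 1, HSC 2, MPP4 1, MPP4 2 and MPP4 3.

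Of 34 mitosis and G2/M genes 16 were lower in HSC (47.1%, against 6.65% of all genes) and none higher. All 34 had a log2 fold change below 0 (median -1.06). Ccnb1, the mitotic cyclin B1, had 39.3, 21.8 and 29.5 CPM in HSC, against 93, 76.4 and 64.7 CPM in MPP4 (log2 fold change -1.37 ± 0.29, adjusted p = 0.0046). Cenpa, the centromeric histone, had 84.7, 35.3 and 72.9 CPM in HSC and 208, 141 and 178 CPM in MPP4 (log2 fold change -1.45 ± 0.38, adjusted p = 0.019), a call lost without HSC 2 (0.11) and MPP4 1 (0.077). Birc5, which encodes survivin, did not pass (132, 41.8 and 151 CPM in HSC and 388, 273 and 345 CPM in MPP4, adjusted p = 0.074). Summed over the list, HSC had 2419, 1414 and 2393 CPM and MPP4 4901, 3992 and 4112 CPM, with HSC 2 the lowest and MPP4 1 the highest. The count of calls moved strongly with these libraries, to 7, 1, 5, 1, 3 and 5 without WT HSC 1, HSC 2, HSC 3, MPP4 1, MPP4 2 and MPP4 3, and it was 7 with the replicate number as a block, 28 in the fit of the 6 libraries alone, 25 with DESeq2 and 28 with quality weights. MPP1 (1829.7, 1197 and 1831 CPM) lay with HSC, and MPP2 (4336, 3952 and 4366 CPM) with MPP4.

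Promoters of some of these genes carry known cell cycle elements, and stretches of 150 bases before the start site are shown for the called genes with the smallest adjusted p that hold one. Sequences are RefSeq promoters of GRCm38.p6, given 5′ to 3′ on the gene's strand. Capitals mark an E2F site in the first 3 genes (TTTCCCGC, TTTGGCGC or TTTCGCGC, or the reverse complement of one), and a CHR (TTTGAA) or CCAAT box on either strand in the others. The Mcm5 stretch lies at chr8:75109359-75109508 (plus strand). Pola1, the catalytic subunit of DNA polymerase alpha, lies at chrX:93632156-93632305 (minus). Hells, a helicase of DNA methylation maintenance, lies at chr19:38930840-38930989 (plus). Cdc20, the activator of the anaphase-promoting complex, lies at chr4:118437344-118437493 (minus). Top2a, topoisomerase II alpha, lies at chr11:99024190-99024339 (minus), and Ccnf, cyclin F, at chr17:24251410-24251559 (minus).
Mcm5: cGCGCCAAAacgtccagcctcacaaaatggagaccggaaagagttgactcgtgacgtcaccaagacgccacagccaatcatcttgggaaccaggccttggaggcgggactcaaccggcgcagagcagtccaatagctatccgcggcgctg
Pola1: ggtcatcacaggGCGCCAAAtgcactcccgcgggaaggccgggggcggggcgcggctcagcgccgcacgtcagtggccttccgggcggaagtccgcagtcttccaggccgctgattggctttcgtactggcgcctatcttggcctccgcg
Hells: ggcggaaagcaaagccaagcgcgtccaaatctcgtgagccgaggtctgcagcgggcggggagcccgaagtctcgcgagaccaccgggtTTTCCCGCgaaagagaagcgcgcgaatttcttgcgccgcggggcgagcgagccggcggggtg
Cdc20: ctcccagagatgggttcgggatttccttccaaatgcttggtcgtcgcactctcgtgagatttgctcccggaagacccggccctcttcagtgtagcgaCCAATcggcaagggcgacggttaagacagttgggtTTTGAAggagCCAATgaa
Top2a: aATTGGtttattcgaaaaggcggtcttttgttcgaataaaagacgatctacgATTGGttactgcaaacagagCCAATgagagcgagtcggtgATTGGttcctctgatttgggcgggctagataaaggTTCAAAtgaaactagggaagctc
Ccnf: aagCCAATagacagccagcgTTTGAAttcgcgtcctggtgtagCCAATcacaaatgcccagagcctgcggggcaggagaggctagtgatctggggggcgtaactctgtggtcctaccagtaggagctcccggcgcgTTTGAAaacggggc
In the 300-base windows from 250 before to 50 after the start, an E2F match was present in 17 of 39 replication genes with a window (43.6%) and in 3.69% of 11412 tested genes with one. A CHR match was present in 22 of 28 mitosis genes (78.6%), against 14.5% of all, and a CCAAT match in 25 of 28 (89.3%), against 42.1%. The lists were described as they stand, and a match is not a measured binding site. Over all 768 genes lower in HSC with a window the shares were near those of all genes, 4.69% for E2F and 17.1% for CHR, and for 616 higher genes 1.95% and 14.4%.

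The levels behind these sequences were as follows. Pola1 had 33.3, 30.7 and 28.3 CPM in HSC and 55.6, 49.3 and 60.8 CPM in MPP4 (log2 fold change -0.84 ± 0.19, adjusted p = 0.0082), with groups apart, and Hells 24.2, 19.4 and 33.3 CPM in HSC and 46.5, 41.1 and 45.1 CPM in MPP4 (log2 fold change -0.79 ± 0.25, adjusted p = 0.043). Cdc20 had 107, 51.3 and 87.8 CPM in HSC, against 208, 158 and 178 CPM in MPP4 (log2 fold change -1.14 ± 0.34, adjusted p = 0.035). Top2a had 108, 78.6 and 118 CPM in HSC and 249.5, 223 and 193 CPM in MPP4 (log2 fold change -1.13 ± 0.35, adjusted p = 0.042). Ccnf had 20.9, 24.1 and 27.2 CPM in HSC and 55.7, 46.3 and 35.7 CPM in MPP4 (log2 fold change -0.93 ± 0.29, adjusted p = 0.043). Mcm5 and Pola1 were called in each of the 6 fits that left out 1 library, Hells, Cdc20 and Ccnf in 1 of 6 and Top2a in none. Adjusted p reached 0.22 for Hells and 0.18 for Cdc20 without HSC 2, 0.18 for Ccnf without MPP4 1 and 0.19 for Top2a without HSC 2. The replicate block left Hells at 0.053, Top2a at 0.054 and Ccnf at 0.055.

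Of 35 CDK inhibitor, cyclin D and quiescence genes 2 were higher in HSC (5.7%, near the 5.4% of all genes) and 6 were lower (17.1%, against 6.65%), with a median of -0.12. The 2 higher ones were Cdkn1c, which encodes p57 (chromosome 7, 143458339 to 143461050, minus strand, 4 exons), and Txnip, the thioredoxin-interacting protein. Txnip had 1319, 1122 and 1181 CPM in HSC, against 422, 562 and 496 CPM in MPP4 (log2 fold change 1.29 ± 0.28, adjusted p = 0.0063). Cdkn1a, which encodes the p53 target p21 (chromosome 17, 29090976 to 29100727, plus strand, 3 exons), had 8.51, 7.36 and 13 CPM in HSC and 92.8, 48.9 and 60.9 CPM in MPP4 (log2 fold change -2.81 ± 0.36, adjusted p = 6.3e-05). The levels of p57 and p21 RNA thus ran in opposite directions, each with groups far apart: Cdkn1c had 101, 73.4 and 139 CPM in HSC and 17.8, 10.8 and 14.8 CPM in MPP4 (log2 fold change 2.85 ± 0.36, adjusted p = 4.3e-05). Cdk4, a G1 kinase gene that overlaps Tspan31, had 393, 251 and 369.8 CPM in HSC and 633, 574 and 543 CPM in MPP4 (log2 fold change -0.79 ± 0.17, adjusted p = 0.0065). The cyclin D genes Ccnd2 (365, 309.7 and 351 CPM in HSC and 284, 289 and 273 CPM in MPP4) and Ccnd3 (773, 662 and 810.3 CPM in HSC and 1349, 809 and 825 CPM in MPP4) did not pass (adjusted p = 0.32 and 0.42). The other lower genes were Cdkn2b, Cdk6, Mxd4 and Rgs2, called in 1, 1, 2 and 2 of the 6 fits without 1 library. Their adjusted p reached 0.088 for Cdkn2b and 0.091 for Mxd4 without HSC 2, 0.12 for Cdk6 without HSC 1 and 0.27 for Rgs2 without MPP4 3. Lower calls numbered 2, 3, 3 and 2 without WT HSC 1, HSC 2, MPP4 1 and MPP4 3; higher calls numbered 4 without MPP4 2, with DESeq2 and with a block within genotype.

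Cdkn1c is also imprinted, expressed from the maternal allele. Of 27 imprinted genes 9 were higher in HSC (33.3%, against 5.4% of all genes) with none lower (median 1.47). Grb10, a growth factor receptor adaptor, had 66.3, 114 and 89.8 CPM in HSC, against 6.24, 15.3 and 10.8 CPM in MPP4 (log2 fold change 3.06 ± 0.44, adjusted p = 1.6e-04). Phlda2 had 14.9, 10.7 and 19.9 CPM in HSC and 2.59, 3.35 and 1.89 CPM in MPP4 (log2 fold change 2.53 ± 0.39, adjusted p = 2.9e-04). Gab1, a docking protein imprinted in mouse placenta, had 34.6, 53.7 and 35.6 CPM in HSC and 10.7, 12.7 and 12.5 CPM in MPP4 (log2 fold change 1.78 ± 0.32, adjusted p = 0.0014). No library of 1 group reached the other for these genes. Gnas, the stimulatory G protein gene, had 4855, 4219 and 5154 CPM in HSC and 5573, 5541 and 5759 CPM in MPP4 and did not pass (adjusted p = 0.14). The count was 5 without WT MPP4 2.

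Of the growth genes, Mycn and its paralog Myc differed in their calls. Mycn (chromosome 12, 12936093 to 12941914, minus strand, 3 exons) had 234, 172 and 191 CPM in HSC, against 27.6, 29.2 and 51 CPM in MPP4 (log2 fold change 2.47 ± 0.28, adjusted p = 1.5e-05). Myc had 1684, 1861 and 1725 CPM in HSC and 2015, 1698 and 1803 CPM in MPP4 (log2 fold change -0.07 ± 0.20, adjusted p = 0.87), with overlapping groups and only even counts. Of 40 MYC and ribosome biogenesis genes, Mycn was the 1 higher (2.5%, against 5.4% of all genes) and 9 were lower (22.5%, against 6.65%). The median was -0.31. Npm1, nucleophosmin, had 841, 460.3 and 919 CPM in HSC and 1365, 1285 and 1238 CPM in MPP4 (log2 fold change -0.81 ± 0.24, adjusted p = 0.035), a call lost without HSC 2 (0.18), MPP4 1 (0.11), MPP4 2 (0.071) and MPP4 3 (0.069). The count of lower genes was 4 with the replicate block and 0, 5, 0, 1 and 1 without WT HSC 2, HSC 3, MPP4 1, MPP4 2 and MPP4 3.

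All 82 cytosolic ribosomal protein genes had a log2 fold change below 0 (median -0.78), yet 5 passed (6.1%, near the 6.65% of all genes), among them Rpl10, Rpl13a and the paralogs Rpl3l and Rps27l. Summed over the list, HSC had 18938, 9596 and 21910.4 CPM and MPP4 29529, 25606 and 29539 CPM, so every HSC library was below every MPP4 library and HSC 2 was the lowest. The count was 45 with quality weights, 18 with DESeq2, 10 in the fit of the 6 libraries, 3 with the replicate block, 2 with the block and length and GC trends removed, and 2, 0, 0, 3 and 1 without WT HSC 1, HSC 2, MPP4 1, MPP4 2 and MPP4 3. The log2 fold change of Rpl10 was -0.92, but -0.27 with length and GC trends removed (0.17), and its call was also lost without HSC 2 (0.16), MPP4 1 (0.093) and MPP4 3 (0.079). For Rpl13a it was -0.97, but -0.42 with the block and the trends removed (0.058), and the call was lost with the block alone (0.063), without a count filter (0.052) and in 5 of the 6 fits without 1 library (up to 0.23, without HSC 2). Rpl3l and Rps27l each lost the call in 3 of these 6 fits (up to 0.085 and 0.16, both without HSC 2).

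Of 77 respiratory chain genes 24 were lower in HSC (31.2%, against 6.65% of all genes), none higher, and 76 were below 0 (median -0.92). Cycs, cytochrome c, had 25.3, 13.8 and 26.5 CPM in HSC, against 59.5, 47 and 51.6 CPM in MPP4 (log2 fold change -1.27 ± 0.29, adjusted p = 0.0088), a call lost without HSC 2 (0.06). Sdhb, a subunit of succinate dehydrogenase, had 124, 72 and 134 CPM in HSC and 254, 191 and 199.6 CPM in MPP4 (log2 fold change -0.97 ± 0.23, adjusted p = 0.012), lost without HSC 2 (0.08) and MPP4 1 (0.07). Cox6a2, the subunit best known from muscle, which overlaps the integrin gene Itgad, had no count in HSC and 16.9, 7.04 and 6.8 CPM in MPP4 (at least 482-fold lower in HSC). The list's sum was 8698, 5567 and 8946 CPM in HSC and 14527, 11756 and 12550.5 CPM in MPP4. Calls numbered 63 with quality weights, 46 with DESeq2, 41 in the fit of the 6 libraries, 38 with a block within genotype and 1, 2, 9 and 9 without WT HSC 2, MPP4 1, MPP4 2 and MPP4 3.

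Of 35 glycolysis and hypoxia genes 3 were higher in HSC (8.6%, against 5.4% of all genes) and 5 lower (14.3%, against 6.65%), while the median was 0.37 and 21 were above 0. The balance of calls turned with the fit: 9 were higher in the fit of the 6 libraries, 7 with DESeq2 and 11 with quality weights, against 5 lower in each. The glucose transporter gene Slc2a3 had 89.2, 98.3 and 88.3 CPM in HSC, against 27.7, 36 and 36.3 CPM in MPP4 (log2 fold change 1.46 ± 0.33, adjusted p = 0.0069), called in each alternative. Pgam1, phosphoglycerate mutase, went the other way, with 32.8, 25 and 24.7 CPM in HSC and 65.2, 49.2 and 55.6 CPM in MPP4 (log2 fold change -1.04 ± 0.25, adjusted p = 0.012), a call lost without HSC 2 (0.061) and MPP4 1 (0.062). Ldha, lactate dehydrogenase A, did not pass (1750.1, 1218 and 2103 CPM in HSC, 2432, 1949.9 and 1917 CPM in MPP4, adjusted p = 0.23). Lower calls numbered 1, 2, 1, 3 and 2 without WT HSC 2, HSC 3, MPP4 1, MPP4 2 and MPP4 3, and higher calls 1 without WT MPP4 1.

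**Figure D4:**
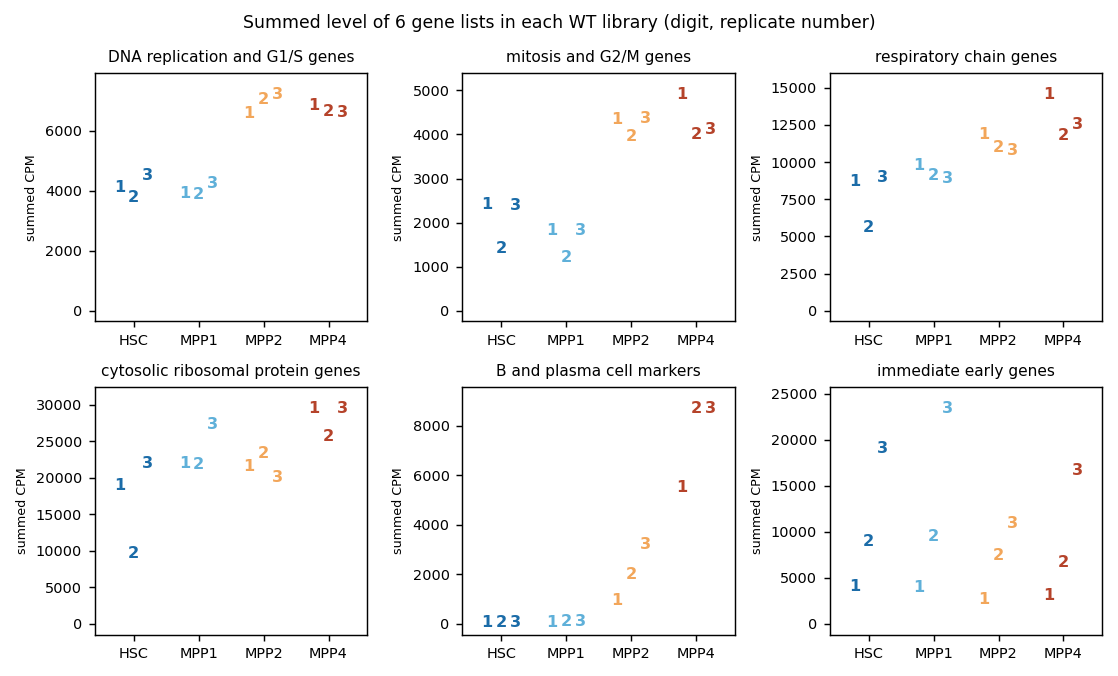
Summed CPM (y) of 6 gene lists in the WT libraries of HSC, MPP1, MPP2 and MPP4 (x); each digit is a library and gives its replicate number. Replication, mitosis and respiratory genes are lower in HSC than in MPP4 in each library, HSC 2 is lowest for ribosomal protein genes, and immediate early genes are lowest in library 1 and highest in library 3 of each population.

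Retinoid genes were called in both directions, more often higher in HSC. Tgm2, transglutaminase 2 and a classical retinoic acid target (chromosome 2, 158116402 to 158146436, minus strand, 13 exons, overlapping Rprd1b), had 102, 149 and 176 CPM in HSC, against 8.35, 5.51 and 6.66 CPM in MPP4 (log2 fold change 4.38 ± 0.49, adjusted p = 9.5e-06). Aldh1a1, which makes retinoic acid from retinal, had 24.5, 30.1 and 83.8 CPM in HSC and 2.35, 3.6 and 2.22 CPM in MPP4 (log2 fold change 4.08 ± 0.76, adjusted p = 0.0017). The matrix protein gene Ecm1 had 25.4, 32.9 and 27.8 CPM in HSC and 8.32, 9.55 and 6.1 CPM in MPP4 (log2 fold change 1.84 ± 0.32, adjusted p = 0.001). The opposite step was seen for Dhrs3, which turns retinal back to retinol, at 29.7, 40 and 20.9 CPM in HSC and 96, 71.4 and 79.9 CPM in MPP4 (log2 fold change -1.45 ± 0.32, adjusted p = 0.0062). All 4 had non-overlapping groups and kept their calls in every alternative. The receptors Rara (49.2, 63.8 and 46.4 CPM in HSC, 78, 79.9 and 57.7 CPM in MPP4, adjusted p = 0.093) and Rxrb (adjusted p = 0.59) did not pass. In all, 4 of 20 genes were higher (20.0%, against 5.4% of all genes) and 1 lower (5.0%, against 6.65%). The median was 0.73.

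In the TGF-beta and BMP pathway 5 of 35 genes were higher in HSC (14.3%, against 5.4% of all genes) and 2 lower (5.7%, near 6.65%). The median was 0.58. The co-receptors were on the HSC side. Tgfbr3, betaglycan (chromosome 5, 107106570 to 107289629, minus strand, 17 exons), had 28.6, 40.7 and 30.9 CPM in HSC, against 1.87, 3.79 and 3.35 CPM in MPP4 (log2 fold change 3.48 ± 0.50, adjusted p = 1.7e-04). Eng, endoglin, which overlaps Fpgs, had 435, 662 and 540.4 CPM in HSC and 155, 219.7 and 198 CPM in MPP4 (log2 fold change 1.52 ± 0.26, adjusted p = 8.4e-04). The inhibitors of bHLH factors Id2 and Id3, both BMP targets, were on the MPP4 side. Id2 had 8.88, 7.69 and 9.48 CPM in HSC and 73.2, 82.9 and 108 CPM in MPP4 (log2 fold change -3.34 ± 0.63, adjusted p = 0.002). Id3 had 1.14, 0.655 and 2.43 CPM in HSC and 25.4, 11.1 and 15 CPM in MPP4 (log2 fold change -3.61 ± 0.73, adjusted p = 0.0034). The ligand gene Tgfb1 (154, 161 and 157 CPM in HSC, 197, 173 and 203 CPM in MPP4, adjusted p = 0.31) and the signal transducer Smad2 (adjusted p = 0.73) did not pass. The rest of the 5 were Smad3, Smad6 and Inhba, and the count was 2 when any library other than HSC 3 was left out. Smad3 and Smad6 were called in 1 of these 6 fits and Inhba in none, with adjusted p up to 0.17 for Smad3 (without HSC 2), 0.13 for Smad6 and 0.15 for Inhba (both without MPP4 1). With length and GC trends removed the Smad3 (0.052) and Smad6 (0.079) calls were also lost, as was Smad6 without a count filter (0.058).

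Of 48 homing and adhesion receptors 8 were higher in HSC (16.7%, against 5.4% of all genes) and 9 lower (18.8%, against 6.65%). The median was -0.13. Itga6, the laminin receptor subunit, had 178, 211 and 203 CPM in HSC, against 63.5, 93.5 and 92.5 CPM in MPP4 (log2 fold change 1.25 ± 0.19, adjusted p = 2.9e-04). Robo4, a guidance receptor that anchors HSC, had 23.7, 46.3 and 24.3 CPM in HSC and 5.87, 7.88 and 7.46 CPM in MPP4 (log2 fold change 2.15 ± 0.39, adjusted p = 0.0015). The selectin ligand gene Selplg had 157, 151 and 155 CPM in HSC, against 289, 290.5 and 285 CPM in MPP4 (log2 fold change -0.90 ± 0.12, adjusted p = 9.7e-05), with very little spread within either group. Itgal, the leukocyte integrin LFA-1 alpha chain, had 23.2, 23.8 and 13.5 CPM in HSC and 168, 267 and 194 CPM in MPP4 (log2 fold change -3.38 ± 0.50, adjusted p = 2.1e-04; even counts only). All 4 kept their calls in every alternative. Cd44, a hyaluronan receptor on both populations, did not pass (550.2, 620.2 and 522 CPM in HSC, 684, 771 and 631 CPM in MPP4, adjusted p = 0.19). Higher calls numbered 4 without WT MPP4 1, and lower calls 5 without WT HSC 2.

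Interferon-stimulated genes changed in both directions, 10 of 47 higher in HSC (21.3%, against 5.4% of all genes) and 4 lower (8.5%, near 6.65%). The median was 0.43, and all mice had received pIpC 3 weeks before. Among the 10 were RNA sensors and GTPases. Ifit1, which binds foreign RNA, had 18.4, 17.6 and 14.1 CPM in HSC, against 4.96, 4.88 and 3.45 CPM in MPP4 (log2 fold change 1.91 ± 0.30, adjusted p = 3.5e-04). Gbp2, a guanylate-binding protein, had 42.1, 51.9 and 56 CPM in HSC and 23.2, 25.2 and 21.5 CPM in MPP4 (log2 fold change 1.10 ± 0.26, adjusted p = 0.0091). Ifih1, the RNA sensor MDA5, had 50, 87.5 and 72.2 CPM in HSC and 17.5, 27.1 and 36.9 CPM in MPP4 (log2 fold change 1.36 ± 0.30, adjusted p = 0.007), lost without MPP4 1 (0.053). The genes lower in HSC were of other kinds. Ly6e, a surface protein of lymphocytes (chromosome 15, 74955051 to 74959905, plus strand, 6 exons), had 5386, 4629 and 6244 CPM in HSC, against 11311, 11548 and 12055 CPM in MPP4 (log2 fold change -1.10 ± 0.17, adjusted p = 2.5e-04). The immunoproteasome subunit Psmb8 had 358, 238 and 345 CPM in HSC and 646, 593 and 628 CPM in MPP4 (log2 fold change -0.99 ± 0.22, adjusted p = 0.0063). The other lower genes were Psmb9, lost without HSC 2 (0.099), and Bst2, lost without HSC 2 (0.17), MPP4 1 (0.088) and MPP4 3 (0.089). The log2 fold change of Bst2 was -0.95, but -0.31 with length and GC trends removed (0.18). The count of higher genes was 3, 2 and 6 without WT HSC 2, MPP4 1 and MPP4 2, and of lower genes 2 without WT HSC 2.

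For the higher interferon genes with the smallest adjusted p that hold an interferon response element (GAAA and GAAA with 2 bases between, on either strand, in capitals), the 150 bases before the start are shown in the same way, for Ifit1 at chr19:34640739-34640888 (plus strand) and Gbp2 at chr3:142620513-142620662 (plus).
Ifit1: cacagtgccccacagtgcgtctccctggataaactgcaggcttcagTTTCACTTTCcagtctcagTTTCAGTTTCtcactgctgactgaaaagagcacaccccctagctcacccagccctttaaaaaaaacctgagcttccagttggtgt
Gbp2: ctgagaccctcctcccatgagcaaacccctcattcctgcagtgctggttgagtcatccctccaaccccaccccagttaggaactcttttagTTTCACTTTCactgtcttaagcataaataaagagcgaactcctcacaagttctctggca
The element was present in 17 of 30 interferon genes with a window (56.7%) and in 3.78% of all genes with one. Among all genes higher in HSC the share was 4.71%, and among genes lower in HSC 4.17%.

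Smaller groups gave single genes. Of 35 chromatin regulators 2 were higher in HSC (5.7%, near the 5.4% of all genes) and 1 lower (2.9%, against 6.65%), with a median of 0.18; with length and GC trends removed 1 was higher and 4 were lower. Ezh2, the methyltransferase of Polycomb complex 2 (chromosome 6, 47530139 to 47595341, minus strand, 20 exons), had 96.3, 68.9 and 99.8 CPM in HSC, against 218, 174 and 171 CPM in MPP4 (log2 fold change -1.09 ± 0.20, adjusted p = 0.0019). Phc1, of Polycomb complex 1, had 179, 207 and 193 CPM in HSC and 91.9, 77.2 and 123 CPM in MPP4 (log2 fold change 0.99 ± 0.19, adjusted p = 0.002). The 2 Polycomb genes ran in opposite directions with groups apart. Kmt2a was the other higher gene (log2 fold change 0.73 ± 0.22, adjusted p = 0.037), and its direction turned to -0.02 once length and GC trends were removed. The Kmt2a call was lost without HSC 2 (0.2), HSC 3 (0.071), MPP4 1 (0.11), MPP4 2 (0.092) and MPP4 3 (0.091), and without a count filter (0.053); 1 chromatin gene was called higher when any library other than HSC 1 was left out. In the BCL2 family 1 of 17 genes was higher (5.9%, near the 5.4% of all genes) and 3 lower (17.6%, against 6.65%). The median was -0.77. Bcl2l1, which encodes BCL-XL, had 116, 106 and 122 CPM in HSC, against 82.7, 65.5 and 66.2 CPM in MPP4 (log2 fold change 0.68 ± 0.20, adjusted p = 0.031). Bcl2 had 77.1, 117 and 103 CPM in HSC and 158, 175 and 174 CPM in MPP4 (log2 fold change -0.77 ± 0.20, adjusted p = 0.016). The Bcl2l1 call was lost without HSC 1 (0.07), HSC 2 (0.067), HSC 3 (0.081), MPP4 2 (0.097) and MPP4 3 (0.1), the Bcl2 call without HSC 1 (0.07) and MPP4 3 (0.051). The others, Pmaip1 and Bid, were also lower. The Pmaip1 call was lost without HSC 2 (0.1), HSC 3 (0.058) and MPP4 3 (0.071), and the Bid call in 4 of the 6 fits without 1 library (up to 0.19, without HSC 2 and without MPP4 1), in the fit of the 6 libraries (0.059) and with length and GC trends removed (0.062); lower calls numbered 1 without HSC 1 or HSC 2 and 0 without MPP4 3. Of 18 genes of the m6A machinery 1 was lower (5.6%, near the 6.65% of all genes) and none higher. The lower gene was the reader Hnrnpa2b1 (log2 fold change -0.34 ± 0.11, adjusted p = 0.047). Its call was lost in all 6 fits without 1 library, with the replicate block (0.061) and in the fit of the 6 libraries (0.099).

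Gimap genes, GTPases of lymphocyte survival, had 2 of 8 members on each side (median -0.04). Gimap4 had 20.6, 24.9 and 18.4 CPM in HSC, against 61.2, 131 and 55.7 CPM in MPP4 (log2 fold change -1.95 ± 0.38, adjusted p = 0.0029). Gimap5 had 67.9, 64.1 and 73.4 CPM in HSC and 33.2, 40.5 and 29.4 CPM in MPP4 (log2 fold change 0.99 ± 0.25, adjusted p = 0.016). The Gimap5 call was lost without MPP4 1 (0.068) and MPP4 3 (0.071), and the Gimap calls on each side numbered 0 to 2 without 1 library. Of 38 lysosome and autophagy genes 5 were higher in HSC (13.2%, against 5.4% of all genes) and 3 lower (7.9%, near 6.65%). The median was -0.15, with 1 higher without MPP4 1, 2 without HSC 2 and 1 lower without HSC 2. Ctsf, cathepsin F, had 45.2, 53.8 and 55.7 CPM in HSC and 17.7, 20.5 and 20.7 CPM in MPP4 (log2 fold change 1.39 ± 0.32, adjusted p = 0.0093), lost without MPP4 1 (0.052). Ctss, cathepsin S of antigen-presenting cells, had 70.3, 38.9 and 27.2 CPM in HSC, against 423, 429 and 428 CPM in MPP4 (log2 fold change -3.23 ± 0.59, adjusted p = 0.0016; even counts only). Beyond the lists, Sfrp1, a secreted Wnt modulator, stood out on the HSC side with 7.33, 6.17 and 21.7 CPM in HSC and 1 count in all of MPP4, a ratio of 1223 whose 95% Poisson interval was 219.4 to 48290. Ephb4, a receptor of ephrin B2 that overlaps Zan, had 9.65, 24.1 and 13.3 CPM in HSC and 0.48, 0 and 0 CPM in MPP4 (log2 fold change 6.53 ± 1.29, adjusted p = 0.0029).

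MPP1 and MPP2 placed the difference between the gates. For the 831 genes that were called higher in HSC with non-overlapping groups, the MPP1 mean stood at a median of 69.3% of the way from the MPP4 to the HSC mean on the log2(CPM + 1) scale, and the MPP2 mean at 32.2%. For the 1022 lower genes the positions were 75.6% and 26.5%. MPP1, CD48- like HSC, was nearer to HSC for 76.5% of the higher and 82.6% of the lower genes, and MPP2, CD48+ like MPP4, for 20.8% and 13.8%. These are descriptions with no test, since genes picked at 2 extremes tend to place any other population between them. Mmrn1 had 31.7, 53 and 76.8 CPM in MPP1 and 28.4, 35.1 and 72.6 CPM in MPP2, with overlapping libraries. Tgm2 had 32.3, 54.4 and 53.8 CPM in MPP1 and 54.2, 25.9 and 39.8 CPM in MPP2, overlapping as well. Vwf, the platelet adhesion protein, had 33.9, 50.2 and 54.2 CPM in HSC, 2.79, 3.34 and 5.96 CPM in MPP1, 7.97, 15.1 and 40.1 CPM in MPP2 and 1.23, 1.25 and 1.46 CPM in MPP4, so the CD150+ populations HSC and MPP2 were the high ones. Irf8, with 25.5, 11.4 and 11.6 CPM in MPP1 and 239, 173 and 223 CPM in MPP2, followed CD48. Ly6d (0.0986, 0.415 and 0.618 CPM in MPP1, 26, 48.2 and 62.2 CPM in MPP2) was highest in MPP4. Cdkn1a had 16.8, 9.36 and 15.6 CPM in MPP1 and 30.9, 30.9 and 26.7 CPM in MPP2; MPP1 overlapped HSC, and MPP2 lay between HSC and MPP4.

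The same step was then compared with that between Mettl3KO HSC and Mettl3KO MPP4, as the HSC over MPP4 log2 difference in Mettl3KO minus that in WT, tested in the same fit. It differed for 241 genes (1.55% of those tested), 146 above 0 (0.939%) and 95 below 0 (0.611%); with length and GC trends taken out the split was 152 and 174. Blnk, low in WT HSC, had 0.321, 0.06 and 0.361 CPM in Mettl3KO HSC and 234, 205 and 404 CPM in Mettl3KO MPP4, against 2.89, 1.99 and 1.54 CPM in WT HSC and 100.4, 59 and 49.4 CPM in WT MPP4 (difference -5.06 ± 0.57, adjusted p = 2.9e-04). The step was wider in Mettl3KO from both sides. Emp1, an epithelial membrane protein gene, had 0.0338, 0.57 and 0 CPM in Mettl3KO HSC and 105, 152 and 153 CPM in Mettl3KO MPP4, against 10.3, 11.9 and 4.56 CPM in WT HSC and 52, 31.9 and 44.2 CPM in WT MPP4 (difference -7.30 ± 0.97, adjusted p = 0.0014). Tcf15 had 51.5, 95.9 and 99.7 CPM in Mettl3KO HSC and 0.656, 0.224 and 0.27 CPM in Mettl3KO MPP4, against 26.8, 20.1 and 46.7 CPM in WT HSC and 0.64, 3.19 and 1.92 CPM in WT MPP4 (difference 3.72 ± 0.71, adjusted p = 0.011). Mycn had 414, 304 and 337 CPM in Mettl3KO HSC and 21, 21 and 14.5 CPM in Mettl3KO MPP4, against 234, 172 and 191 CPM in WT HSC and 27.6, 29.2 and 51 CPM in WT MPP4 (difference 1.75 ± 0.38, adjusted p = 0.024), wider again. Mmrn1 was the opposite case. Its levels of 43.7, 21.3 and 3.66 CPM in Mettl3KO HSC and 36.7, 30.1 and 39.9 CPM in Mettl3KO MPP4 overlapped, against 167, 269 and 268 CPM in WT HSC and 12.6, 11.1 and 13.5 CPM in WT MPP4 (difference -4.87 ± 0.80, adjusted p = 0.0044). Dpp4, a surface peptidase, had 7.73, 2.25 and 3.27 CPM in Mettl3KO HSC and 99.4, 112 and 160.1 CPM in Mettl3KO MPP4, against 44.2, 67.5 and 49.6 CPM in WT HSC and 62.7, 53.5 and 52.1 CPM in WT MPP4, where the groups overlapped (difference -4.73 ± 0.66, adjusted p = 0.0021). The Blnk, Emp1, Tcf15, Mmrn1 and Dpp4 differences were called under every alternative. The Mycn difference was lost without WT HSC 2 (0.07), WT HSC 3 (0.05), WT MPP4 3 (0.086), Mettl3KO HSC 3 (0.062) and Mettl3KO MPP4 3 (0.092). The number of genes depended on the library left out, from 73 without Mettl3KO MPP4 3 to 771 without Mettl3KO HSC 1.

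**Figure D5:**
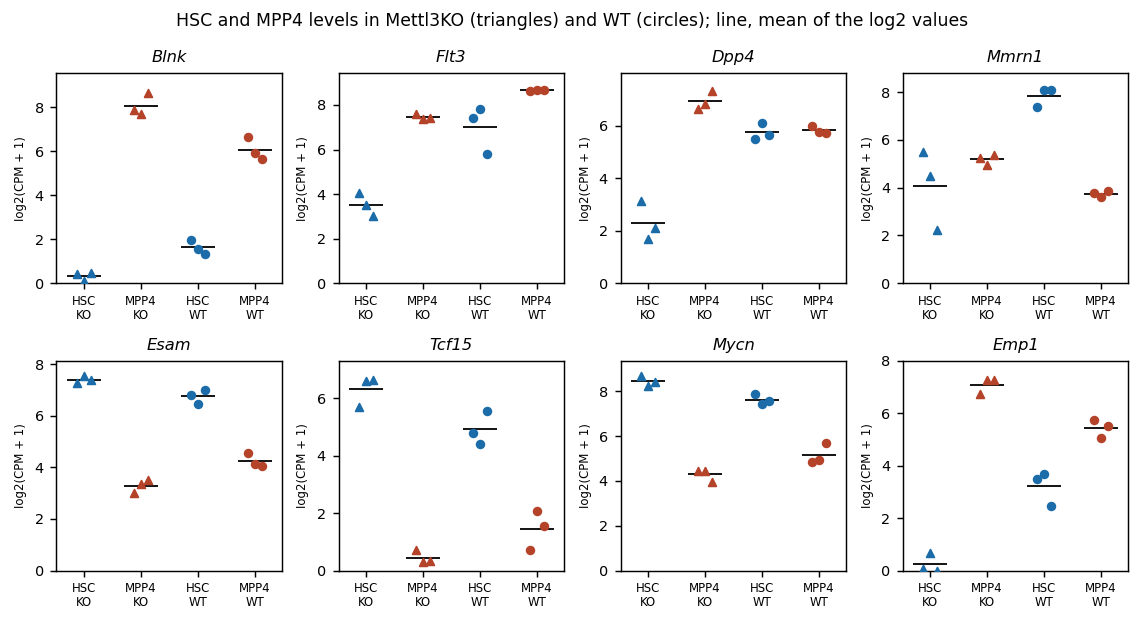
Levels of 8 genes as log2(CPM + 1) in Mettl3KO HSC, Mettl3KO MPP4, WT HSC and WT MPP4 (x); triangles are Mettl3KO and circles WT libraries, and lines are means of the log2 values. Blnk, Flt3, Dpp4, Esam, Tcf15, Mycn and Emp1 have a wider HSC to MPP4 step in Mettl3KO, and the Mmrn1 groups overlap in Mettl3KO and are apart in WT.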

How the data were processed

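Bone marrow populations were sorted from 3 mice per group, and polyA RNA was amplified with SMARTer chemistry and sequenced as paired reads, per the labels. The authors deposited a table of whole-number counts per gene for 24 bulk libraries; it is named as if it held FPKM, but its values are whole and its columns sum to 28896498 to 55276836. The submitters' processing notes name Bowtie, TopHat, Cell Ranger 2.2, mm10 and GRCh37 without roles; the sources used here give no counter, annotation or strand setting, so overlapping genes may share reads. These include Mettl3 with Tox4, Plek with Cnrip1, Ciita with Dexi, Lsp1 with Prr33, Gnas with Nespas and Ccnd3 with Bysl, beside those named with their values. Of 24063 genes, 27 have symbols turned into dates and 4584 have no count. The single-cell table was not used.

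Computed here were TMM factors, CPM, and edgeR 4.0.16 quasi-likelihood fits in R 4.3.3 over all 24 libraries in 8 groups, which leave 16 residual degrees of freedom, after filterByExpr; p-values were Benjamini-Hochberg adjusted over all genes tested. Each standard error is the size of the log2 fold change divided by the root of F. The fit was also run on simulated counts with the same dispersion for every gene and no shared replicate effect. That was a check of the code only. Members and lists were chosen with earlier results of these data known. Named genes were, per list, up to 4 called genes per direction with non-overlapping groups by adjusted p, up to 2 uncalled ones by level, all gate genes, 10 genes per direction outside the lists by fold change, and for the Mettl3KO comparison the 10 smallest adjusted p and any named gene that passed. Cd3e, Cdh5, Col3a1, Kdr, Ms4a1, Pax5, Pola1, Hells, Cdc20, Top2a, Ccnf and genes named without values were added after their values were seen. A few genes that met the rule are not reported here. Same-numbered libraries deviated together (correlations 0.37, 0.337 and 0.248, others -0.21 to -0.069), so a fit with the replicate number as a block was run. The other alternatives were the compared groups alone, DESeq2 1.42.0 and its size factors, no count filter, limma 3.58.1 quality weights, loess removal of gene length and GC trends (span 0.4), each library left out and, chosen after seeing the data, even counts halved and a block within genotype. Poisson intervals and floors of 3 counts cover counting error only. Gene coordinates are GENCODE vM21 on GRCm38.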

Additional observations from a re-analysis of the deposited data

Results flagged for a closer look

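For 16 named genes the HSC to MPP4 step differed between genotypes by the interaction term of the edgeR fit, given here as log2 of HSC over MPP4 in Mettl3KO minus the same in WT, with its standard error.

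The 10 genes with the smallest adjusted p were Blnk (-5.06 ± 0.57, adjusted p = 2.9e-04), Gcsam, Emp1, Dpp4, Mfsd5, Smarca4, Cd37, Ablim1, Sorbs3 and F2rl3. Gcsam, a germinal centre signalling adaptor gene, had no count in Mettl3KO HSC and 12.5, 14.9 and 11.5 CPM in Mettl3KO MPP4, against 5.31, 3.04 and 4.68 CPM in WT HSC and 8.11, 13.7 and 28.5 CPM in WT MPP4; its fitted difference of -10.07 ± 1.12, adjusted p = 7.4e-04 rests on the zeros and is no bound. The differences were -7.30 ± 0.97, adjusted p = 0.0014 for Emp1 and -4.73 ± 0.66, adjusted p = 0.0021 for Dpp4. Mfsd5, a transporter gene, had 209, 199.5 and 246 CPM in Mettl3KO HSC and 104, 86.6 and 80.8 CPM in Mettl3KO MPP4, against 52.7, 53.8 and 44.8 CPM in WT HSC and 86, 59.8 and 68.1 CPM in WT MPP4 (1.77 ± 0.26, adjusted p = 0.0034). Smarca4, the ATPase BRG1 of chromatin remodelling, had 514, 573 and 472 CPM in Mettl3KO HSC and 1681, 1423 and 1964 CPM in Mettl3KO MPP4, against 519.8, 674 and 538 CPM in WT HSC and 778, 640.2 and 731 CPM in WT MPP4 (-1.39 ± 0.21, adjusted p = 0.0034). Cd37, a leukocyte tetraspanin gene that overlaps Tead2, had 93.4, 91.4 and 122 CPM in Mettl3KO HSC and 814, 642 and 943 CPM in Mettl3KO MPP4, against 298, 317 and 229 CPM in WT HSC and 688, 597 and 541 CPM in WT MPP4 (-1.85 ± 0.28, adjusted p = 0.0034). The actin-binding gene Ablim1 gave -2.09 ± 0.33, adjusted p = 0.0043. Sorbs3, which encodes vinexin, gave 1.62 ± 0.25, adjusted p = 0.0043, and F2rl3, the thrombin receptor PAR4 of platelets, 1.56 ± 0.25, adjusted p = 0.0043.

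Genes named for their WT difference were also among them. Flt3 had 15.3, 10.5 and 7.19 CPM in Mettl3KO HSC and 190.4, 162 and 168 CPM in Mettl3KO MPP4, against 168, 228 and 54.4 CPM in WT HSC and 398, 413 and 413 CPM in WT MPP4 (-2.53 ± 0.58, adjusted p = 0.032). Esam, an HSC adhesion molecule gene, had 156, 184 and 167 CPM in Mettl3KO HSC and 7.12, 9.3 and 10.3 CPM in Mettl3KO MPP4, against 110.2, 87.5 and 127 CPM in WT HSC and 22.3, 16.7 and 15.7 CPM in WT MPP4 (1.68 ± 0.36, adjusted p = 0.021). Tcf3 had 1199.9, 725 and 836 CPM in Mettl3KO HSC and 2586, 2671 and 3376 CPM in Mettl3KO MPP4, against 1199, 1474 and 1164 CPM in WT HSC and 1564, 1384 and 1223 CPM in WT MPP4, where it did not pass (-1.52 ± 0.35, adjusted p = 0.029). Tcf15 gave 3.72 ± 0.71, adjusted p = 0.011, Mmrn1 -4.87 ± 0.80, adjusted p = 0.0044 and Mycn 1.75 ± 0.38, adjusted p = 0.024. Of these, Flt3, Esam, Tcf3 and Mycn lost the call in some alternatives, with adjusted p values up to 0.1 for Flt3, 0.066 for Esam, 0.1 for Tcf3 and 0.092 for Mycn.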

How the results depend on the processing

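The main fit called 1873 genes between WT HSC and WT MPP4. Fits without 1 library called 680 to 1351 genes, of which 662 to 1259 were among the 1873. DESeq2 called 2962 genes and quality weights 3930, and in the other alternatives the count stayed within 1.5 times. Leaving out 1 library for the Mettl3KO comparison gave 73 to 771 genes against 241, the compared groups alone 155, DESeq2 886 and quality weights 1366. The log2 fold change of Kmt2a reversed to -0.0235 with length and GC trends removed and to -0.0253 with the replicate block added; the cause was not tested. The replicate block gave 1685 calls for WT and 251 for the Mettl3KO comparison. Among the genes named here it ended the calls of Hspe1, Rpl13a, Hnrnpa2b1 and Ldb2, and of Hells, Top2a and Ccnf, and changed no other call of a gene named here to uncalled. DESeq2 and quality weights also gave 9 and 9 Hox genes, 8 and 12 TGF-beta pathway genes higher in HSC, 14 and 15 lower MYC and ribosome biogenesis genes, 6 and 6 lower BCL2 family genes, and among retinoid genes 6 and 6 higher with 4 and 3 lower. Quality weights alone gave 16 higher interferon genes, and 12 higher and 16 lower homing receptors. The fit of the compared groups and quality weights gave 4 and 5 higher erythroid genes, and the first 2 higher m6A genes. Length and GC trends removed left 3 TGF-beta pathway and 3 lysosome genes higher. Of 150 called genes named by the rule, 86 were called in every alternative. The p-values rest on 1 spread per gene, estimated over all 24 libraries in 8 groups of 3 mice, not on the 6 compared libraries alone. The main fit had no term for the replicate number. Depth limits genes near the floors of 0.0212 CPM in HSC and 0.0288 CPM in MPP4. All alternatives could be run.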
